A study of Mus musculus with 6 samples.

Results

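The circadian clock genes described here are Clock, Per1, Per2, Per3, Cry1, Cry2, Nr1d1, Nr1d2, Dbp and Tef. These 10 genes were found by matching the Ensembl identifiers of the deposited table to GENCODE mouse symbols, and each matched 1 of the 56953 rows. The samples were mouse embryonic fibroblasts (MEFs), connective tissue cells grown from embryos, from which 3 WT and 3 GαqKO libraries were made for RNA sequencing. The study's methods describe the GαqKO line as lacking both Gαq and Gα11, and all cultures were kept in DMEM with fetal bovine serum. Each genotype is represented by a single line, so genotype and other differences between the lines cannot be told apart, and p-values measure the spread between cultures of a line. No hour of harvest and no synchronising step is given in the sources used here, so each library gives transcript levels without a measured clock phase.

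In the molecular clock, CLOCK pairs with BMAL1 and binds E-box sequences to switch on the Per, Cry, Nr1d, Dbp and Tef genes. PER and CRY proteins then inhibit that pair, while the REV-ERB receptors encoded by Nr1d1 and Nr1d2 repress Bmal1 through elements that the ROR receptors activate. DBP, TEF and the related HLF are PAR bZIP factors that activate D-box genes, and NFIL3 represses through the same D-box. Fibroblasts carry this loop in each cell, and serum, glucocorticoids or cAMP can reset it.

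The levels are normalized counts, which are reads per gene divided by 1 size factor per library. The 5 libraries whose reads could be recovered held from 9853000 to 12229175 reads on genes. Gnaq, whose product the line is described as lacking, averaged 1690.8 ± 48.5 in WT against 1926.3 ± 36.0 in the other group (normalized counts, SD of 3 libraries). Gna11, the gene of Gα11, described as lacking too, averaged 2147.9 ± 29.0 against 451.6 ± 28.7 (SD of 3 libraries). The Gna11 transcript was thus lower in the group with the GαqKO label. Because the Gnaq transcript was not lower, the second group is called the libraries labelled GαqKO and each direction rests on those labels. All 8 fibroblast markers checked reached 10 normalized counts in each library labelled GαqKO, and 7 did in WT, where Thy1 was between 0 and 2.1. Of these markers Pdgfra was higher in the libraries labelled GαqKO, at 19.6 ± 2.2 in WT against 2319.7 ± 42.0, and Col1a1 was lower, at 16671 ± 1167.8 against 5774.5 ± 272.1 (normalized counts, SD of 3 libraries). The list summed to between 73226.9 and 79139 normalized counts in WT and between 54694.9 and 57097.4 in the libraries labelled GαqKO, and its part in the results was not tested. The epithelial marker Cdh1 was at 238.2 ± 3.1 normalized counts in WT and 8.0 ± 2.7 in the libraries labelled GαqKO (SD, n = 3 each). Over the 4 epithelial markers the summed level ran from 255.5 to 283.7 in WT and from 9.1 to 20.8 in the libraries labelled GαqKO, Epcam was at or below 8.1 in each library, and the part of these markers in the results was not tested. The endothelial, blood cell, muscle and glial lists each summed to at most 103.9 normalized counts in any library, with Cd68 the main source in the blood cell list.

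Promoters of 9 of the 10 genes were in the RefSeq table used here (build GRCm38.p6), in 13 windows, and Per2 was not among them. The 250 bases before each start were searched on both strands for the E-box CACGTG, its variant CACGTT, the D-box TTANGTAA, the ROR element TAGGTCA and the cAMP element TGACGTCA. CACGTG was in 4 of the 13 windows, against 6.02% of all 32841 windows. These were the first of the 2 Per1 windows, the Cry1 window and both windows of Tef. CACGTT was in 3 windows, those of Cry1, Cry2 and Nr1d1, against 3.85% of all windows. TTANGTAA was in the Per3 window alone among the 13, at 2 positions, against 2.06% of all windows. No member window held TAGGTCA (2.24% of all) or TGACGTCA (1.55% of all). The second Per1 window and the windows of Dbp, Nr1d2 and Clock held none of these letters, which says nothing about sites outside them. Per1, Cry1, Cry2, Nr1d1 and Tef share an E-box or its variant. Of their transcripts Per1 was called lower, Nr1d1 and Tef were called higher, and Cry1 was not called. The higher call of Cry2 depended on single libraries, and its window is not printed. The windows of Per1 (the first alone), Cry1, Nr1d1 and Tef are printed, with CACGTG or CACGTT, read on either strand, in capitals. They lie at chr11:69098699-69098948 (plus strand) for Per1, chr10:85185055-85185304 (minus strand) for Cry1, chr11:98775378-98775627 (minus strand) for Nr1d1, and chr15:81802423-81802672 and chr15:81811164-81811413 (plus strand) for Tef, all in GRCm38.p6.
Per1: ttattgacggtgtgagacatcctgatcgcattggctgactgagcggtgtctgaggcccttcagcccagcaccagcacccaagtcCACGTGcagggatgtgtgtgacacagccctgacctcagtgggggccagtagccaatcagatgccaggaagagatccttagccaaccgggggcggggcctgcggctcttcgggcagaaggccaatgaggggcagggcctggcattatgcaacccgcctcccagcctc
Cry1: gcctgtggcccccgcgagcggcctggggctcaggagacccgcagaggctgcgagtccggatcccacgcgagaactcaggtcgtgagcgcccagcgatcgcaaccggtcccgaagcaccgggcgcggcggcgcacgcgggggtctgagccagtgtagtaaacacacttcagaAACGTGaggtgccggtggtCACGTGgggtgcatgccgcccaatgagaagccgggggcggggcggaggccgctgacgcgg
Nr1d1: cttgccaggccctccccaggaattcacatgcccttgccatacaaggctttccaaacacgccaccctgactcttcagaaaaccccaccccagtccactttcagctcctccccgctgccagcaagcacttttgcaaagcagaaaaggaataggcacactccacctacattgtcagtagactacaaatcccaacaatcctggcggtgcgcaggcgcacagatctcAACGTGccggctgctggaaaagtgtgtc
Tef, first window: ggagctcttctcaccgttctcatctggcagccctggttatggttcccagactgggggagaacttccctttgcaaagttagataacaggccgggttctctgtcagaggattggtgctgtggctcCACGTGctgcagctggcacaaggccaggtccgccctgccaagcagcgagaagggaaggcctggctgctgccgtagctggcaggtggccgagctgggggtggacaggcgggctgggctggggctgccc
Tef, second window: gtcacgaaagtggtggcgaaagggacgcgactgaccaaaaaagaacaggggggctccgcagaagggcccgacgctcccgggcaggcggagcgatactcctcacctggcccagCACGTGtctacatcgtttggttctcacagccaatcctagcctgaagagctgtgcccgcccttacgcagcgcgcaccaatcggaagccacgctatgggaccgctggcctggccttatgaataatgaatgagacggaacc
A CACGTG match thus stood before genes whose transcripts were lower (Per1), higher (Tef) and not called (Cry1) in the libraries labelled GαqKO.

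Across the clock genes, the output factors Dbp and Tef, the REV-ERB genes Nr1d1 and Nr1d2 and the repressor gene Per2 were higher in the libraries labelled GαqKO, by 1.94-fold to 3.48-fold. Per1 was the only one called lower, with WT at 1.72-fold its level, and Cry1 did not pass the test. Clock and Cry2 differed by 1.12-fold and 1.28-fold, and their calls depended on single libraries. Of the 9 genes tested, 7 were called higher and 1 lower, with limma's p-values adjusted by Benjamini-Hochberg over 14096 genes and a threshold of 0.05. Over all those genes 31.8% were called higher, 34.1% lower and 65.8% in either direction, so the 8 calls stand in a comparison where calls were common. The groups did not overlap for 7 members that were higher (33.8% of all genes) and 1 that was lower (35.8%), or 8 of 9 in all (69.6%). Past a log2 fold change of 1 the members higher were Per2, Nr1d2, Dbp and Tef, 4 of 9, against 10.2% of all genes tested. The median log2 fold change was 0.95 over the 9 members and -0.01 over all genes tested. Per3 (ENSMUSG00000028957.13, chromosome 4, 151081373 to 151129140, minus strand, GRCm39), the remaining period gene, was listed at 0 in each of the 6 libraries and was not tested. Of its exon bases 6.17% lie within the spans of other genes, and the cause of these zeros was not tested. In bulk libraries a change in the share of cells that carry a transcript and a change in RNA per cell cannot be told apart.

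**Figure D1:**
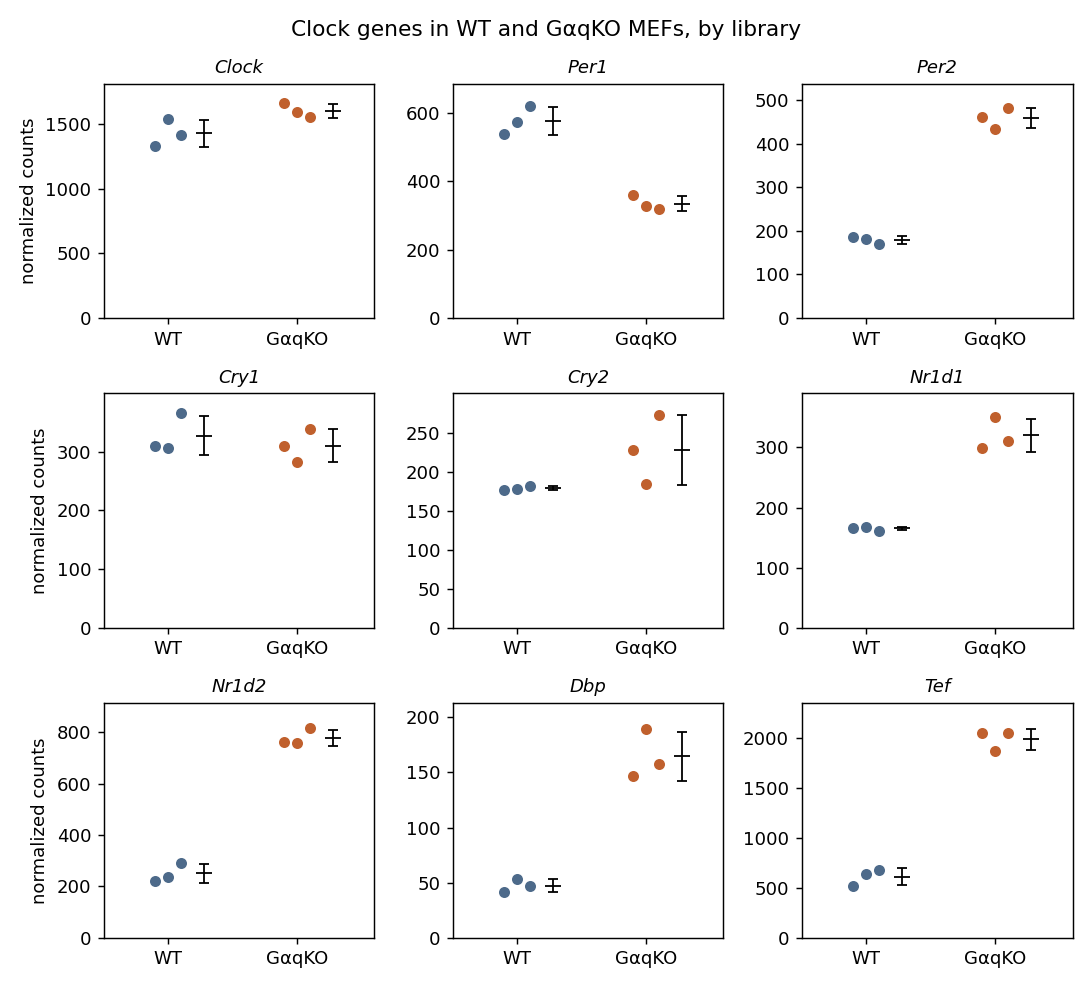
Normalized counts (y axis, linear, from 0) of the 9 clock genes tested, with 1 point per library, WT in blue and the libraries labelled GαqKO in orange; the bars are the mean and SD over 3 libraries. The groups are apart for each gene except Cry1, where 282.1 to 338.4 overlaps 306.0 to 365.4.

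The period and cryptochrome genes encode the proteins that close the loop, and Per1 and Per2 differed in opposite directions. Per2 (ENSMUSG00000055866.10, chromosome 1, 91343700 to 91387069, minus strand, GRCm39) had 185.9, 180.7 and 169.0 normalized counts in WT and 461.1, 434.7 and 481.4 in the libraries labelled GαqKO. The lowest value with the GαqKO label was more than any WT value. Its log2 fold change was 1.36 (adjusted p = 7.98e-09 by limma, with a standard error of 0.086), a 2.57-fold difference in means. Per1 (ENSMUSG00000020893.18, chromosome 11, 68986035 to 69002300, plus strand), which responds quickly to serum and cAMP, had 538.8, 573.1 and 619.9 normalized counts in WT and 358.7, 328.4 and 318.2 in the libraries labelled GαqKO. All 3 values fell under the lowest WT value, and the log2 fold change was -0.78 (adjusted p = 9.05e-07 by limma, with a standard error of 0.078). Neither gene shares exon bases with another gene of the table.

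Cry1 (ENSMUSG00000020038.11, chromosome 10, 84967560 to 85021252, minus strand), the gene of a strong inhibitor of CLOCK and BMAL1, had 310.1, 306.0 and 365.4 normalized counts in WT and 308.9, 282.1 and 338.4 in the libraries labelled GαqKO. The groups overlapped, and the log2 fold change was -0.08 with a 95% interval from -0.29 to 0.13 (adjusted p = 0.50 from limma), so that neither direction was resolved. Its sign rested on WT replicate 3, without which the value was 0.004. Cry2 (ENSMUSG00000068742.12, chromosome 2, 92233894 to 92264474, minus strand) had 176.5, 177.8 and 181.2 normalized counts in WT, a narrow spread. Their coefficient of variation was 1.35%, below the 7.93% that counting alone gives at the lowest depth of Cry2, 159 reads. That depth was the lowest over the 5 recovered libraries of both groups and was in GαqKO replicate 2, not in WT. The libraries labelled GαqKO held 227.2, 183.8 and 272.9, a range that starts just above WT. The log2 fold change of Cry2 was 0.33 (adjusted p = 0.0379 by limma, with a standard error of 0.13). That call was lost without WT replicate 1 (adjusted p = 0.0574), without WT replicate 2 (0.0623), without GαqKO replicate 1 (0.083) and without GαqKO replicate 3 (0.203, with a log2 fold change of 0.195), and also with no trend in the prior spread (0.0961). It was not made in edgeR (0.129) or DESeq2 (0.425) either, which were run on recovered reads and so without GαqKO replicate 3. In the annotation, 68.9% of the exon bases of Cry2 lie within the spans of other genes, a fact whose part in its level was not tested.

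Nr1d1 and Nr1d2 encode REV-ERBα and REV-ERBβ, nuclear receptors that bind heme and repress Bmal1. Nr1d2 (ENSMUSG00000021775.12, chromosome 14, 4230545 to 4266624, plus strand in GRCm39) had 220.3, 238.0 and 292.1 normalized counts in WT and 761.5, 759.6 and 814.7 in the libraries labelled GαqKO. Its values in that group were close together and well clear of WT. The log2 fold change of Nr1d2 was 1.64 (adjusted p = 3.16e-09 by limma, with a standard error of 0.095). Nr1d1 (ENSMUSG00000020889.12, chromosome 11, 98658752 to 98666188, minus strand) had 166.0, 168.1 and 161.8 normalized counts in WT and 298.6, 351.5 and 310.2 in the libraries labelled GαqKO. The groups were again apart, with a log2 fold change of 0.95 (adjusted p = 1.20e-06 by limma, with a standard error of 0.097). Nr1d1 overlaps the thyroid hormone receptor gene Thra on the opposite strand, sharing 52.2% of its exon bases with Thra exons. Since the strand setting of the counting is not given in the sources used here, reads from shared bases cannot be told apart. Thra itself was lower in the libraries labelled GαqKO, at 809.9 ± 36.0 normalized counts in WT against 675.2 ± 2.1 (SD of 3 libraries). The part of Thra in the Nr1d1 values was not tested.

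Dbp and Tef encode transcription factors that carry the clock's rhythm to D-box genes. Dbp (ENSMUSG00000059824.13, chromosome 7, 45354512 to 45359627, plus strand) was the scarcest member detected, with 41.8, 53.4 and 46.8 normalized counts in WT. It reached 146.5, 189.6 and 158.1 in the libraries labelled GαqKO, a 3.48-fold difference in means. The log2 fold change of Dbp was 1.78 (adjusted p = 4.02e-07 by limma, with a standard error of 0.16). At its lowest depth Dbp was represented by 40 reads, for which counting alone gives a coefficient of variation of 15.8%, and the values in WT varied by 12.3%. Tef (ENSMUSG00000022389.16, chromosome 15, 81686622 to 81711064, plus strand) had 520.0, 635.3 and 684.0 normalized counts in WT and 2050.8, 1870.8 and 2058.4 in the libraries labelled GαqKO. No value came near the other group, and the log2 fold change was 1.71 (adjusted p = 5.91e-10 by limma, with a standard error of 0.084). Both genes share exon bases with a gene on the other strand, Dbp with Sphk2 (15.5%) and Tef with Gm17597 (2.34%). Sphk2 had 341.5 ± 24.9 and 514.2 ± 19.0 normalized counts and Gm17597 had 6.1 ± 0.2 and 33.7 ± 8.1 (SD, n = 3 each), both higher in the libraries labelled GαqKO, Gm17597 having passed the filter only through that group, and their part in the Dbp and Tef values was not tested.

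Clock (ENSMUSG00000029238.12, chromosome 5, 76342860 to 76452846, minus strand), the activator among the members, differed little. It had 1334.5, 1538.7 and 1418.9 normalized counts in WT and 1664.9, 1600.2 and 1556.9 in the libraries labelled GαqKO. The groups did not overlap, though the nearest values, 1538.7 and 1556.9, were close beside the WT range. The log2 fold change of Clock was 0.17 (adjusted p = 0.0172 by limma, with a standard error of 0.057). It did not pass without WT replicate 1 (log2 fold change 0.12, adjusted p = 0.0755), without GαqKO replicate 1 (0.14, adjusted p = 0.0755) or with no trend in the prior spread (adjusted p = 0.0836). Its exons share 12.6% of their bases with other genes, among them Tmem165, which had 1269.4 ± 37.7 normalized counts in WT and 1463.6 ± 38.8 in the libraries labelled GαqKO (SD, n = 3 each).

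**Figure D2:**
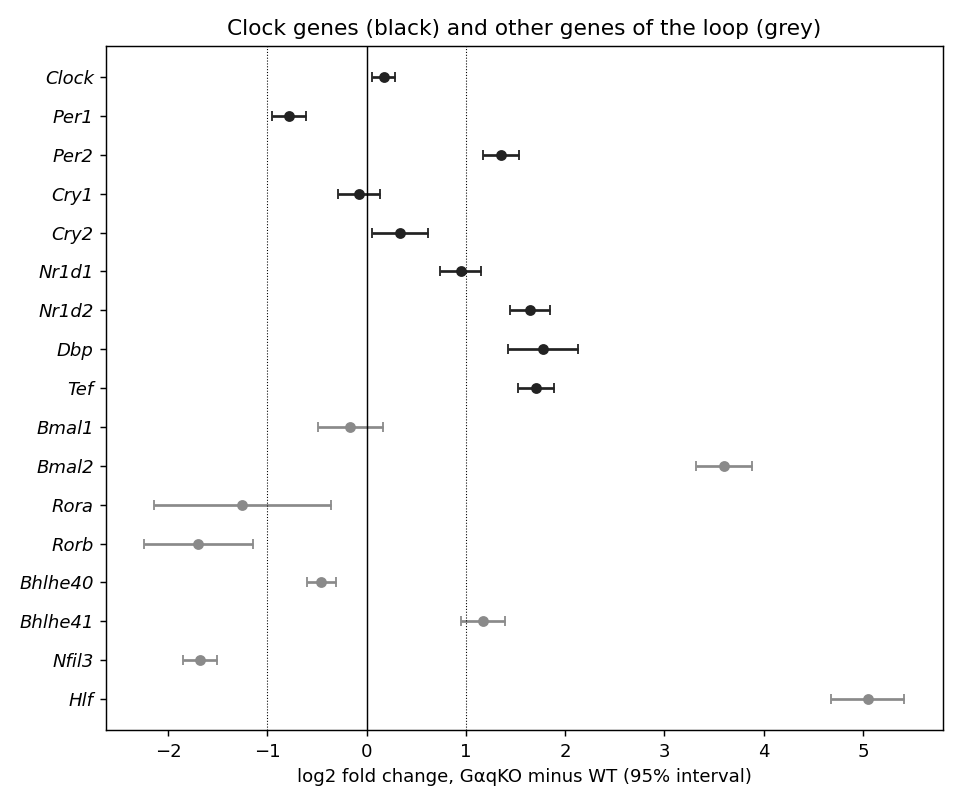
Log2 fold change (x axis, libraries labelled GαqKO minus WT) with its 95% interval from limma for the 9 clock genes (black) and 8 other genes of the loop (grey); dotted lines mark -1 and 1. Hlf lies furthest right at 5.05, Nfil3 and Rorb lie near -1.7, and the intervals of Cry1 and Bmal1 include 0.

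To compare levels between members, normalized counts were divided by the kilobases of exon outside the spans of other genes. On this per-length scale, which assumes that reads came from those exon bases, Nr1d1 (122.4 ± 2.3), Clock (109.4 ± 7.8) and Tef (89.6 ± 12.3) were highest in WT (SD, n = 3 each). Per1 (75.4 ± 5.3), Cry2 (66.8 ± 0.9) and Cry1 (65.7 ± 6.7) followed. The spreads of Clock and Tef, of Tef and Per1, of Per1 and Cry1 and of Cry2 and Cry1 overlapped, and Nr1d2 (27.6 ± 4.1) and Per2 (27.2 ± 1.3) were level with each other above Dbp (16.1 ± 2.0). Per length in the libraries labelled GαqKO, Tef led (291.4 ± 15.5) before Nr1d1 (236.9 ± 20.6) and Clock (122.9 ± 4.2). Then came Nr1d2 (86.0 ± 3.5), Cry2 (85.3 ± 16.7), Per2 (69.9 ± 3.6), Cry1 (62.2 ± 5.7) and Dbp (56.2 ± 7.6), in which no neighbours differed beyond their spread. Per1 (43.8 ± 2.8) was lowest. The rank of Nr1d1 depends on leaving out the overlapped exons, since over all its exon bases the level was 51.0 in WT and 98.7 in the libraries labelled GαqKO, and Cry2 likewise went to 20.8 and 26.6.

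Ratios of 2 transcripts within a library hardly depend on scaling, and 6 were formed from normalized counts plus 1. The log2 ratio of Per1 to Per2 was 1.53, 1.66 and 1.87 in WT and -0.36, -0.40 and -0.60 in the libraries labelled GαqKO, so that Per1 exceeded Per2 in normalized counts in WT alone. That change of -2.14 was the largest of the 6. The log2 ratio of Nr1d1 to Nr1d2 went from -0.58 ± 0.23 to -1.28 ± 0.15 and that of Cry1 to Cry2 from 0.87 ± 0.12 to 0.46 ± 0.15 (SD, n = 3 each). The log2 ratio of Bmal1 to Nr1d1, an activator gene to its repressor, went from -0.41 ± 0.13 to -1.52 ± 0.12 (SD, n = 3 each). For these 4 ratios the groups did not overlap, and the exact two-sided permutation test gave p = 0.1, the smallest that 3 libraries against 3 allow (0.15 after adjustment over the 6 ratios). The log2 ratio of Dbp to Tef was -3.66 ± 0.15 and -3.60 ± 0.27 (SD, n = 3 each), with overlapping groups (exact permutation p = 0.8). Clock to Bmal1 had log2 ratios of 3.51 ± 0.22 and 3.85 ± 0.26 (SD, n = 3 each; exact permutation p = 0.2).

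**Figure D3:**
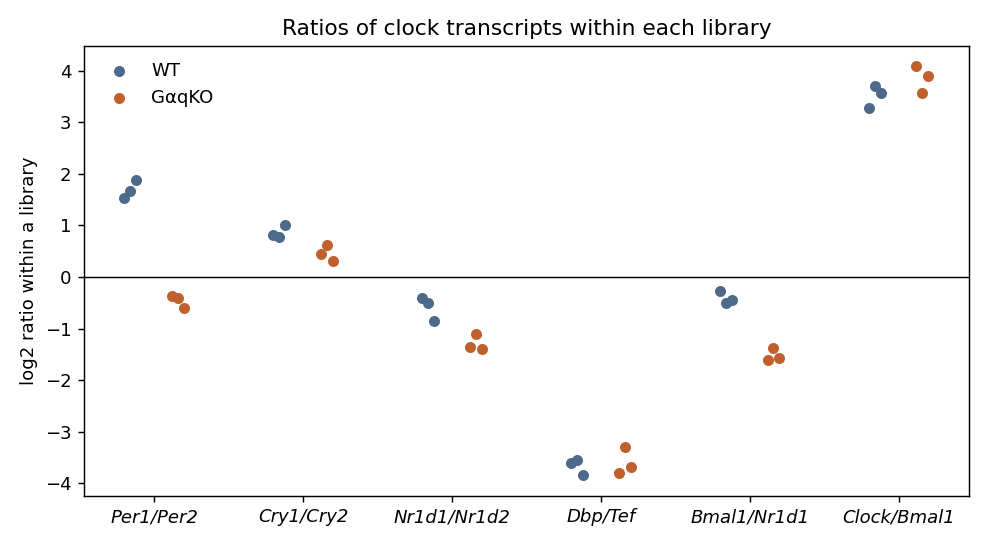
Log2 ratio of 2 transcripts within each library (y axis) for 6 pairs, with WT in blue and the libraries labelled GαqKO in orange, 1 point per library. Per1/Per2 changes sign between the groups, Bmal1/Nr1d1 drops by 1.11 on average, and the points of Dbp/Tef and Clock/Bmal1 overlap.

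Among 48 other genes of the clock pathway, 43 were tested, of which limma called 11 higher and 18 lower with the same threshold, against 31.8% and 34.1% of all genes tested. Their median log2 fold change was -0.11. DESeq2 on 5 libraries called 11 of them lower, as did limma when its prior spread had no trend (11). Ciart, Usp2 and Wee1 were listed at 0 in each library, and the exons of all 3 lie within the spans of other genes.

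Among partners of CLOCK, Bmal1 had 137.8, 117.5 and 119.1 normalized counts in WT and 97.7, 134.1 and 103.7 in the libraries labelled GαqKO. The groups overlapped, and the log2 fold change was -0.17 with a 95% interval from -0.49 to 0.16 (adjusted p = 0.347 from limma). Npas2, which can stand in for Clock, had too few reads to be tested, with 10.4, 0 and 4.1 normalized counts in WT and 4.7, 3.5 and 1.0 in the libraries labelled GαqKO. Bmal2, a paralog of Bmal1, had 34.5, 41.8 and 40.7 normalized counts in WT and 468.6, 449.8 and 531.7 in the libraries labelled GαqKO. These values are an order of magnitude apart, with a log2 fold change of 3.60 (adjusted p = 2.50e-11 by limma, with a standard error of 0.13).

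Rora and Rorb, whose products oppose the REV-ERBs, were scarce and lower in the libraries labelled GαqKO. Rorb averaged 55.8 ± 8.1 in WT against 16.6 ± 3.3 (normalized counts, SD of 3 libraries), with a log2 fold change of -1.70 (adjusted p = 4.32e-05 from limma). Rora had 33.4, 26.2 and 29.5 normalized counts in WT and 16, 19.7 and 5.0 in the libraries labelled GαqKO. Rora reached 10 normalized counts in 3 libraries only through WT, where it was high, and had no test when 10 were asked of every library. Its log2 fold change of -1.25 (adjusted p = 0.0162 from limma) also rested on GαqKO replicate 3, the lowest value, without which it was -0.71 (adjusted p = 0.0577). In edgeR (adjusted p = 0.084) and DESeq2 (0.28), which likewise had no GαqKO replicate 3, Rora did not pass, nor did it in limma on all 6 libraries with no trend in the prior spread (0.0651).

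Of the genes whose products share the D-box with DBP and TEF, the activator gene Hlf was higher and the repressor gene Nfil3 lower. Hlf, the third PAR bZIP activator, had 13.6, 19.4 and 22.4 normalized counts in WT and 585.0, 630.2 and 683.8 in the libraries labelled GαqKO. The groups were far apart, with a log2 fold change of 5.05 (adjusted p = 1.65e-11 by limma, with a standard error of 0.17), although 73.3% of the exon bases of Hlf lie within the spans of other genes. Nfil3, the D-box repressor, had 1335.5, 1227.9 and 1095.2 normalized counts in WT and 369.0, 357.3 and 410.9 in the libraries labelled GαqKO. Each of those was well under WT, and the log2 fold change was -1.68 (adjusted p = 3.56e-10 by limma, with a standard error of 0.079). Of the E-box repressor genes, Bhlhe41 (DEC2) was higher, at 170.4 ± 20 and 382.8 ± 16.4 normalized counts (mean ± SD of 3 libraries). Its paralog Bhlhe40 (DEC1) was lower, at 534.9 ± 9.4 and 389.2 ± 15.3 (SD, n = 3 each).

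Of the kinases, ubiquitin ligases and proteases that set the stability of PER and CRY, 8 of 10 were tested, with 0 higher and 6 lower. Among these were Csnk1d, Csnk1e, Gsk3b, Fbxw11 and Usp7, and none of the 6 passed a log2 fold change of -1. The largest difference among them was that of the kinase gene Gsk3b, 2707.5 ± 172.7 in WT against 1600.0 ± 47.5 (normalized counts, SD of 3 libraries), or -0.76 on the log2 scale. Of the 9 chromatin and RNA-binding cofactors 0 were higher and 5 lower, namely Nono, Sfpq, Ncor1, Sirt1 and Crebbp. The deacetylase gene Sirt1 differed most, with a log2 fold change of -0.89. The shares called lower, 6 of 8 and 5 of 9, stand against 34.1% of all genes tested.

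Of 9 rhythmic output genes 8 were tested, with 3 higher (Tspan4, Tsc22d3 and Lonrf3) and 0 lower, the former near the 31.8% of all genes called higher. Lonrf3 reached 10 normalized counts in 3 libraries only through the group where it was high, and it had no test when 10 were asked of every library. It averaged 13.8 ± 4.2 in WT against 98.2 ± 4.8 (normalized counts, SD of 3 libraries), with a log2 fold change of 2.79 (adjusted p = 3.49e-07 from limma). Nampt and Noct, which encode an NAD-producing enzyme and the phosphatase nocturnin, had log2 fold changes of 0.15 and 0.10 and did not pass the test. Among 9 genes of the cAMP, glucocorticoid and serum inputs, 4 were higher (Atf1, Crtc2, Crtc3 and Sik1) and 3 lower (Creb1, Crtc1 and Nr3c1), against 31.8% and 34.1% of all genes tested. Sik1, a kinase gene that cAMP induces and whose product restrains the CRTC coactivators of CREB, had 313.3, 298.2 and 368.5 normalized counts in WT and 860.1, 882.2 and 858.0 in the libraries labelled GαqKO. Its groups were far apart, with a log2 fold change of 1.41 (adjusted p = 2.24e-09 by limma, with a standard error of 0.079).

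The changes of Per1, Per2, Nr1d1, Nr1d2, Dbp and Tef kept their direction and call under each of 15 alternatives run. When single libraries were left out, the log2 fold change ran from 1.32 to 1.40 for Per2 and from -0.83 to -0.73 for Per1. For the REV-ERB genes it ran from 0.88 to 0.99 (Nr1d1) and from 1.56 to 1.76 (Nr1d2), and for the output factors from 1.67 to 1.86 (Dbp) and from 1.59 to 1.79 (Tef). The number of members called higher was between 5 and 7.

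**Figure D4:**
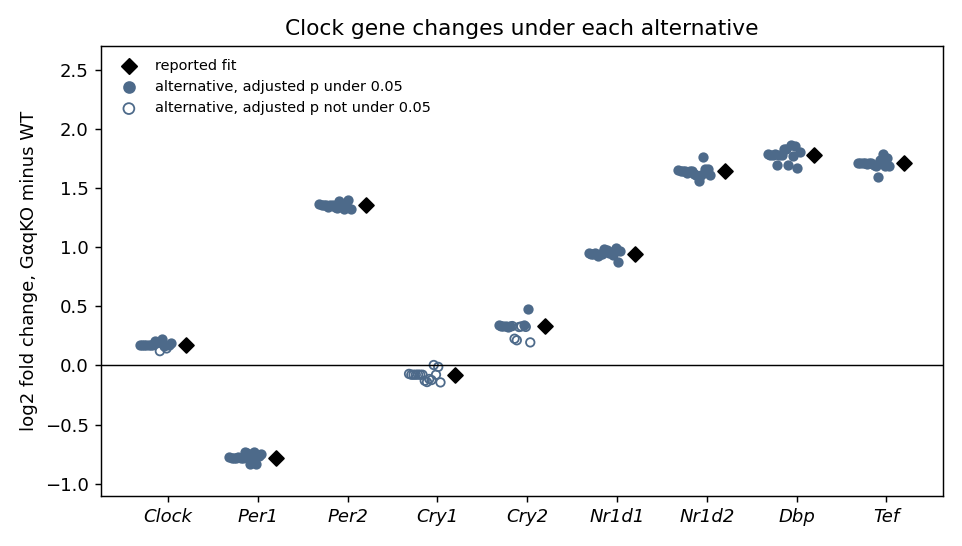
Log2 fold change (y axis, libraries labelled GαqKO minus WT) of the 9 clock genes in the reported fit (black diamonds) and under 15 alternatives (circles, filled where the adjusted p is under 0.05). Open circles appear for Clock, Cry1 and Cry2 alone, and the values of Cry2 spread from 0.195 to 0.478.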

How the data were processed

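Poly-A selected libraries of 3 cultures per genotype were sequenced as read pairs. By the paper's methods, Rbowtie2 aligned the reads to GRCm39, featureCounts assigned them with GENCODE release 32, and DESeq2 was run. Tool versions and the strand setting are not given in the sources used here. The deposited values are a signal, gene counts scaled by a size factor for each library. Of 1620 protein-coding genes whose exons lie within the spans of others, 71.6% were listed at 0, against 25.2% of 11516 without overlap.

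Symbols and GRCm39 coordinates came from GENCODE release 39 (98.9% of identifiers matched), and only genes in the table counted as overlapping. limma 3.58.1 (R 4.3.3) was fitted to log2(normalized count + 1) for the genes that reached 10 normalized counts in 3 or more libraries; the pseudocount understates changes of scarce genes. The threshold was an adjusted p of 0.05. Every value above 0 in 5 libraries (100%) was a whole number of steps within 0.01, and edgeR 4.0.16 and DESeq2 1.42.0 were run on those reads as alternatives. GαqKO replicate 3 was left out of these because its scaling lay too near 1 for the recovery to be checked. Floors were set at 3 counts and cover counting error only. Scripts were tested on simulated data. Figures were drawn with Python 3.11.15 and matplotlib 3.10.9.

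The members and lists were chosen with earlier results of these data known. The text names all members, Bmal1, Npas2, and pathway genes past an adjusted p of 0.05 and a log2 fold change of 1 in size; Bhlhe40, Gsk3b, Sirt1, Nampt, Noct, the genes sharing exons with members and the other genes named beside counts were chosen after their values were seen. Some genes that the rule names are not reported here.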

Additional observations from a re-analysis of the deposited data

How the results depend on the processing

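The alternatives were TMM scaling, no filter or a filter of 10 normalized counts in every library, pseudocounts of 0.5 and 5, a replicate block, no trend in the prior spread, edgeR and DESeq2 on the recovered reads of 5 libraries, and single libraries left out. The number of other clock pathway genes called lower was 18, and it was 11 in DESeq2 and 11 when the prior spread had no trend; the cause was not tested. Leaving out each library gave 5 to 7 clock genes higher and 1 lower, and 10 to 12 other pathway genes higher and 16 to 18 lower. The sign of Cry1, which was not called, turned without WT replicate 3 (0.004), and over single libraries left out its log2 fold change ran from -0.143 to 0.004. The replicate block changed no call among the 19 genes followed. Libraries that share a replicate number did not deviate together from their group means (correlations across genes of -0.045, -0.148 and -0.064), so the number was not treated as a pairing. With the block 8 of the members kept a call, 7 higher and 1 lower. TMM scaling moved the median of all genes from -0.012 to -0.005. Depth limits the scarce genes: at 40 reads, counting alone gives Dbp a coefficient of variation of 15.8%.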
